A study of Mus musculus with 3 samples.

Results

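The SOCS, STAT3, STAT5 and PIM genes described here are 9 genes of cytokine signalling, Socs1, Socs2, Socs3, Cish, Stat3, Stat5a, Stat5b, Pim1 and Pim2. They were chosen by symbol, with earlier results of these data known, and each had 1 row among the 23337 gene symbols of the series. Their counts beside the shares of all tested genes are therefore a description and no test of the family. All 9 were among the 9800 genes tested, those with a mean of at least 1 FPKM over the 3 libraries. RNA was measured in wild-type CD4+ T cells labelled Th1, from C57/Bl6j mice aged 7 weeks, as 1 library from B16-F10 tumours and 2 libraries from lymphoid organs. B16-F10 is a mouse melanoma line that grows in this strain. The lymphoid libraries are titled as spleen, while their tissue label adds lymph nodes and draining lymph nodes. The labels give neither the number of mice pooled nor whether the lymphoid libraries come from different mice. The tumour group is 1 library, so the p-values rest on the spread between the lymphoid libraries alone. That spread may be technical.

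Many cytokines signal through receptors that carry JAK kinases, which phosphorylate STAT transcription factors. STAT5 acts downstream of interleukin-2, interleukin-7 and related cytokines, and STAT3 downstream of interleukin-6, interleukin-21 and interleukin-10. Among the genes that STATs switch on are those of the SOCS proteins, which bind the receptors or JAKs and damp the signal, and those of the PIM kinases, which favour growth and survival.

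After scaling, 8 of the 9 genes were higher in the tumour library than in either lymphoid library, and Socs2 was lower than in either. Socs3 had the largest rise, at 2.49 times its lymphoid mean, and Socs2 was at 0.297 times its lymphoid mean. Of all tested genes, 25.5% lay above both lymphoid libraries and 62.4% lay below both. The test was limma on log2(scaled FPKM + 1) with Benjamini-Hochberg adjustment over all 9800 genes, and changes are differences on this scale, which understates changes of low genes. It called Socs3, Cish and Pim2 higher and Socs2 lower, that is 3 and 1 of the 9, where 8.54% of all tested genes were called higher and 19.7% lower. By size, without a test, Socs3 alone was at least 2-fold above both lymphoid libraries, as were 6.66% of tested genes. Socs2 alone was at least 2-fold below both, as were 9.68% of tested genes.

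FPKM, fragments scaled to transcript length and to library depth, is a level per length, so that levels of different genes can be compared. Scaled FPKM here is the deposited value divided by a median-of-ratios size factor, 0.66 for the tumour library and 1.20 and 1.24 for lymphoid libraries 1 and 2. These factors use every row above 0 in the 3 libraries and leave the median tested gene at a log2 change of -0.25. Factors over the tested genes alone, chosen after the data had been seen, were 0.58, 1.29 and 1.33 and put the median gene at -0.01. With them Stat3, Stat5a and Pim1 were called higher as well, which gave 6 higher and 1 lower of the 9, against 12.7% and 9.17% of all tested genes. As deposited, the median gene was at -0.96, and 0 of the 9 were called higher (0 also at an unadjusted p under 0.05) and 3 (Socs1, Socs2 and Stat5b) lower. Every rise below is therefore a rise relative to most other genes. Under all 14 settings tried, the same 8 genes lay above the median tested gene and Socs2 below it. This is a weak check, because a library factor moves most genes and their median together. Several settings also left the log2 changes of the 9 genes as they were.

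**Figure D1:**
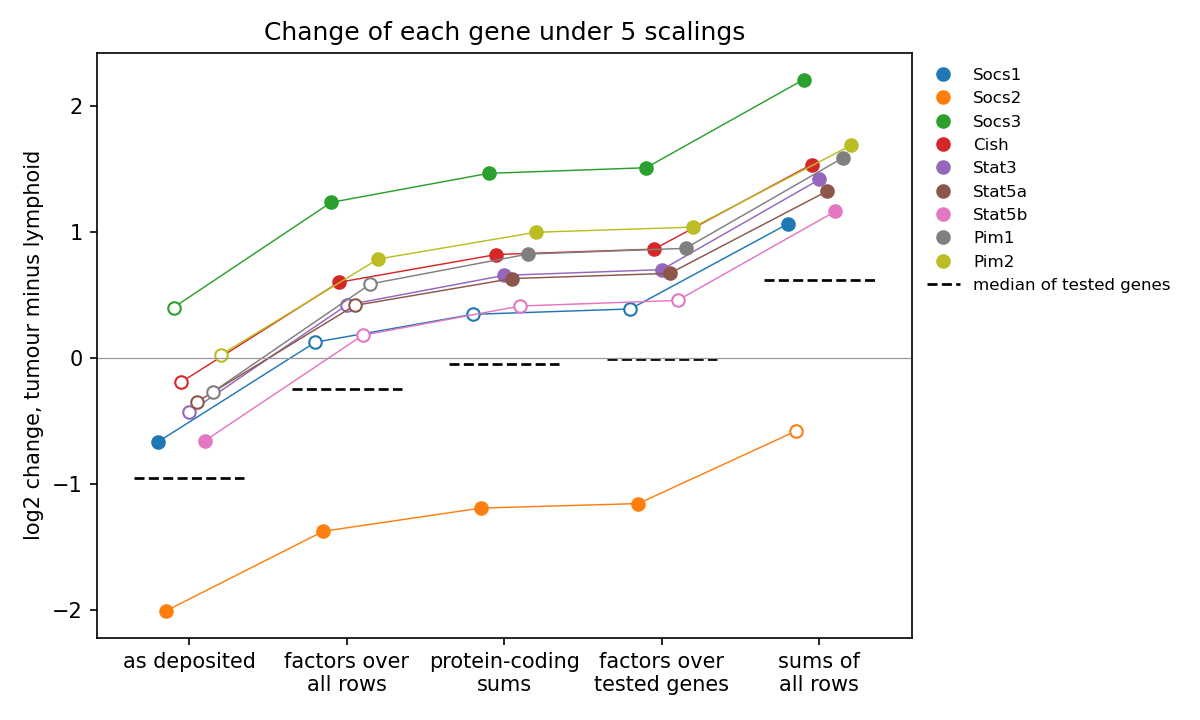
The log2 change of each gene, tumour minus lymphoid, is plotted under 5 scalings, with filled points for changes called by limma and a dashed line for the median of all tested genes. The 8 genes other than Socs2 sit above the dashed line in all 5 columns, while their position against 0 moves with the scaling.

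The tumour library was shallower. Its depth was estimated as 3270000 fragments, against 11460000 and 15630000 for lymphoid libraries 1 and 2. The estimate takes the commonest value of FPKM times transcript length among low genes as 1 fragment, which is an assumption. Odorant and vomeronasal receptor genes, which T cells are not known to use, averaged 0.229 scaled FPKM in the tumour library, against 0.0108 and 0.0465 in the lymphoid libraries. The 8 T cell markers with a row, Cd3e and Cd4 among them, were above 0 in all libraries and summed to 567.9 scaled FPKM in the tumour library, against 739.9 and 731.3. The 6 Th1 markers summed to 134.7 against 165.9 and 155.4. Of them, Tbx21 and Ifng were called lower and none higher, and Stat4 and Il18r1 lay above both lymphoid libraries. The 10 macrophage and monocyte markers summed to 9.32 against 1.62 and 1.46. Among these, Itgam was called higher, at 3.46 against 1.09 and 0.722, C1qa was at 2.24 against 0 and 0.101, and C1qb and C1qc were at 0 in the tumour library. The 7 melanocyte markers summed to 2.93 against 1.46 and 1.60, with Mlana at 0 in all libraries. The CD8 T cell marker Cd8b1 was called higher, at 4.18 against 0.531 and 0.839 (log2 change 1.63, limma adjusted p = 0.0061). The 4 NK cell markers summed to 16.1 against 27.6 and 24.6, mostly from Klrb1c, at 11.8 against 25.4 and 21.6. Ncr1 (1.29 against 0 and 0.181) and Klra8 (0.870 against 0 and 0) went the other way, and Klre1 lay between the lymphoid libraries. Dendritic cell markers summed to 1.82 against 0.990 and 0.801, and fibroblast markers to 1.11 against 0.0715 and 0.194. SOCS, STAT and PIM genes are active in many cell types, and the part of other cells in the values below was not tested. In bulk RNA, fewer cells of a type and less RNA per cell cannot be told apart.

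**Figure D2:**
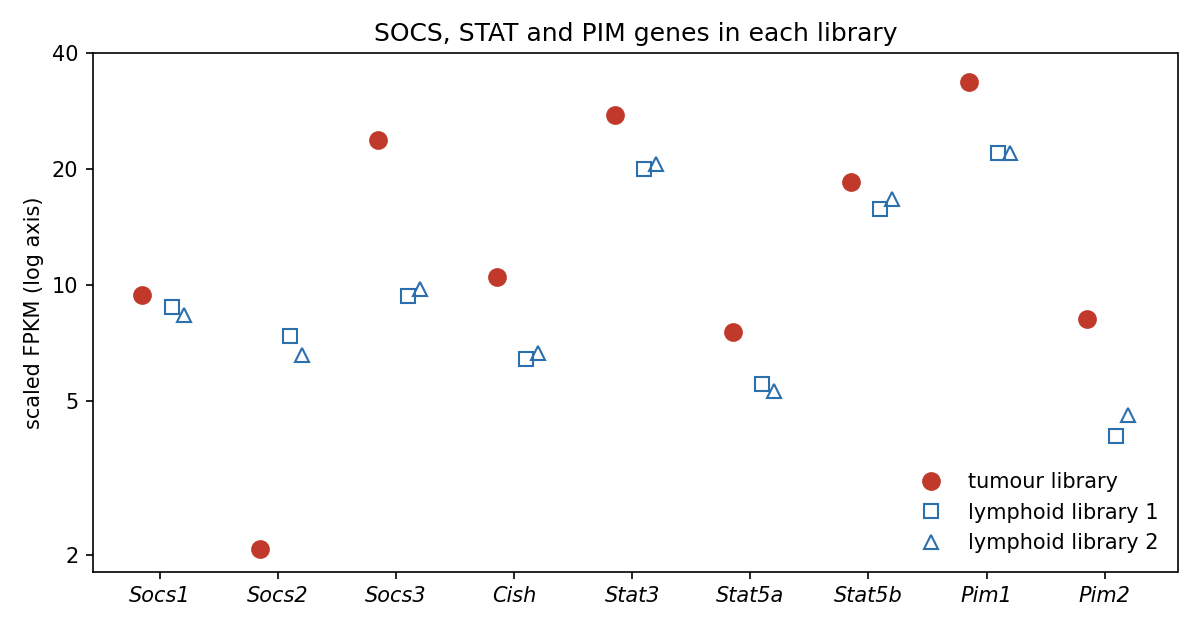
Scaled FPKM on a log axis is shown for the 9 genes, with filled circles for the tumour library and open symbols for the 2 lymphoid libraries. The tumour point lies above both lymphoid points for 8 genes, furthest for Socs3 (23.9 against 9.39 and 9.76), and below both for Socs2 (2.08 against 7.41 and 6.59).

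The lymphoid libraries agreed closely on these genes. On the log2 scale their gap ran from 0.00 for Pim1 to 0.15 for Pim2 and Socs2, where the SD of that gap over all tested genes was 0.37. The order of the lymphoid means, from high to low, was Pim1, Stat3, Stat5b, Socs3, Socs1, Socs2, Cish, Stat5a and Pim2. Neighbours in it kept their order in both lymphoid libraries except Socs2 and Cish, which changed places. In the tumour library the order was Pim1, Stat3, Socs3, Stat5b, Cish, Socs1, Pim2, Stat5a and Socs2. Socs3 thus stood above Stat5b there, and Socs2 below all the others. The tumour order has no replicate.

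Socs3 encodes the feedback inhibitor that binds the shared interleukin-6 receptor chain gp130 and its JAKs. Its gene (ENSMUSG00000053113.3) lies on the minus strand of chromosome 11, from 117966079 to 117970047 in GRCm38, the assembly of mm10. Its level was 23.9 scaled FPKM in the tumour library, against 9.39 and 9.76 in the lymphoid libraries. The tumour library stood clear of both, and the log2 change was 1.23 with SE 0.16 (limma adjusted p = 0.0084, 95% interval 0.83 to 1.64). Of all tested genes, 95.6% had a lower log2 change. With factors over the tested genes the change was 1.51 (adjusted p = 0.00324). Socs3 was also the one gene of the 9 whose deposited tumour value, 15.8 FPKM, lay above both deposited lymphoid values, 11.3 and 12.1 FPKM, but as deposited it was not called (log2 change 0.40, adjusted p = 0.067). About 132 tumour fragments lay behind the value, against 331 and 484. When the counting error of those tumour fragments was added to the SE, the adjusted p was 0.0508, or 0.0205 with factors over the tested genes.

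The region before the RefSeq start of Socs3 is shown because it holds the STAT motif TTCNNNGAA, which STAT3 and STAT5 bind and which reads as the same pattern on both strands. The bases run from 250 to 86 before that start, at chr11:117969452-117969616 on the minus strand of GRCm38.p6, 5′ to 3′. They overlap no annotated Socs3 exon in GENCODE M21, but they lie within the annotated gene, whose outermost start is further upstream. Capitals mark the motif, whose first base is 154 bases before the start.
Socs3: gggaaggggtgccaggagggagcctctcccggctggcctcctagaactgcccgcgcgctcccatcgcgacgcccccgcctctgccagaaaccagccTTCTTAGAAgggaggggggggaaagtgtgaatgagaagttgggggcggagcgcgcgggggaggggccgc

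Cish encodes CIS, the SOCS family member that is a standard STAT5 target and is also induced by T cell receptor signalling. Its gene (ENSMUSG00000032578.7) lies on the plus strand of chromosome 9, from 107296026 to 107302784. It had 10.5 scaled FPKM in the tumour library, against 6.46 and 6.69 in the lymphoid libraries. The tumour value was clear of both, with a log2 change of 0.60 and SE 0.15 (limma adjusted p = 0.0417), or 0.86 with factors over the tested genes (adjusted p = 0.0161). As deposited the direction was the other way, at 6.93 FPKM in the tumour library against 7.77 and 8.33 FPKM, a log2 change of -0.19 that was not called. The call also ended with counting error added (adjusted p = 0.216), on about 65 tumour fragments, without the filter on low values (adjusted p = 0.0524) and with a filter at a mean of 5 FPKM (adjusted p = 0.0573).

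Cish has 2 copies of the same motif at its RefSeq start, beginning at bases 1 and 12 counted from the first transcribed base. They are printed because this paired arrangement sets Cish apart from the other 7 genes with a window. The stretch lies at chr9:107296654-107296678, plus strand of GRCm38.p6, within the first exon of the longest GENCODE transcript, which starts upstream. Capitals mark the motif copies.
Cish: cagttTTCCTGGAAagTTCTTGGAA

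Start-site windows of 300 bases, 250 before and 50 after each RefSeq start, were held for 8 of the 9 genes, in 11 windows. The motif occurred in the Socs3 and Cish windows and in none of the 9 windows of Socs1, Stat3, Stat5a, Stat5b, Pim1 and Pim2. Of all 32851 windows, 8.30% held it at least once and 0.457% held it more than once. A match describes the letters only and is no evidence of binding.

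Socs1 encodes the strongest direct inhibitor of JAK kinases in the family and restrains interferon gamma signalling. Its gene (ENSMUSG00000038037.5) lies on chromosome 16, from 10782240 to 10785536. It was at 9.43 scaled FPKM in the tumour library, against 8.78 and 8.36 in the lymphoid libraries. The 3 values lay within a narrow range and the gene was not called (log2 change 0.12, SE 0.15, 95% interval -0.27 to 0.52, limma adjusted p = 0.558). It was not called with factors over the tested genes either (0.39, adjusted p = 0.134), and as deposited it was called lower (-0.67, adjusted p = 0.0112).

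Socs2 encodes a SOCS protein best known for restraining growth hormone receptor signalling, and it is also a STAT5 target. Its gene (ENSMUSG00000020027.18) lies on chromosome 10, from 95385362 to 95417180. It was at 2.08 scaled FPKM in the tumour library, against 7.41 and 6.59 in the lymphoid libraries. The tumour value was well below both, with a log2 change of -1.38 and SE 0.16 (limma adjusted p = 0.00603), and 2.51% of tested genes had a lower change. It was also called lower as deposited (-2.01, adjusted p = 0.00269) and with factors over the tested genes (-1.16, adjusted p = 0.0067). Scaling by the sum of all rows gave -0.58 and no call (adjusted p = 0.105). The tumour value rested on about 10 fragments, and with counting error added the adjusted p was 0.135. Less receptor gene background, the log2 change was -1.48.

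Ratios between these genes within a library do not depend on any scaling. Socs3 over Socs1 was 2.53 in the tumour library, against 1.07 and 1.17 in the lymphoid libraries. Socs3 over Socs2 was 11.5 against 1.27 and 1.48, and Cish over Socs2 was 5.04 against 0.872 and 1.02. Socs3 held 52.1% of the summed FPKM of Socs1, Socs2, Socs3 and Cish in the tumour library, against 29.3% and 31.1%. The tumour library thus stood apart in the balance among the 4 SOCS family genes, whichever factor is used. The ratio of Socs3 to the gene of the factor it restrains, Stat3, was 0.865 against 0.468 and 0.472, and that of Cish to Stat5b was 0.566 against 0.411 and 0.399. No test was run on these ratios.

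The 3 STAT genes lie close together on chromosome 11. Stat3 (ENSMUSG00000004040.16, 100885098 to 100939540, minus strand) was at 27.6 scaled FPKM in the tumour library, against 20.1 and 20.7 in the lymphoid libraries. It was not called (log2 change 0.42, SE 0.17, 95% interval 0.00 to 0.84, limma adjusted p = 0.114), and it was called with factors over the tested genes (0.70, adjusted p = 0.0392). Stat5a (ENSMUSG00000004043.14, 100859351 to 100885169, plus strand) was at 7.58 against 5.53 and 5.34, also not called (0.42, SE 0.15, adjusted p = 0.0911) and also called with those factors (0.67, adjusted p = 0.0309). Stat5b (ENSMUSG00000020919.11, 100780731 to 100850724, minus strand) was at 18.5 against 15.7 and 16.8 and was called under neither (0.18, adjusted p = 0.43, and 0.46, adjusted p = 0.112). As deposited all 3 were below both lymphoid libraries, with log2 changes of -0.43, -0.35 and -0.66, the last called. With counting error added the calls of Stat3 and Stat5a by those factors ended (adjusted p = 0.148 and 0.225).

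Stat5b was the more abundant STAT5 gene in every library, with a ratio to Stat5a of 2.44 in the tumour library, against 2.84 and 3.14. The ratio of Stat3 to Stat5a was 3.64, against 3.63 and 3.88. The balance among the STATs thus moved less than that among the SOCS genes. Their share of reads is not fully separable. Of the windows of 75 bases, the read length, in the longest coding transcript of Stat5a, 10.1% were found unchanged in that of Stat5b, and 7.53% the other way round, against 0% of Stat3 windows found in Stat5b. The sources used here do not say how reads that match both genes were shared out. Summed, Stat5a and Stat5b were at 26.1 scaled FPKM in the tumour library, against 21.3 and 22.1, with a log2 change of 0.26 (limma adjusted p = 0.28). Stat3 and Stat5a also overlap tail to tail in annotated exons by 72 bases on opposite strands, 0.756% of the Stat3 exon bases. The libraries were stranded, but the sources used here do not say whether counting used the strand. Cish and Pim1 overlap antisense genes of the annotation too.

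The stretch where the longest identical run of the STAT5 coding sequences begins is printed to show why short reads cannot tell the genes apart there. The run has 324 bases. Capitals mark its first 60 bases, and lower case marks the 20 bases before it, 5′ to 3′ on the coding strand, from GENCODE M21 transcripts. The Stat5a stretch lies in exon 7 at chr11:100874003-100874082 (plus strand, GRCm38), and the Stat5b stretch in exon 6 at chr11:100798642-100798721 (minus strand).
Stat5a: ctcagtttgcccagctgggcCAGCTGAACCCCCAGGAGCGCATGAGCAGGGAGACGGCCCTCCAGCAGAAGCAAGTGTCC
Stat5b: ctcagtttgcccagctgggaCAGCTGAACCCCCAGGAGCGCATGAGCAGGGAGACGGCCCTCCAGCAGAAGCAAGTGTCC

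The PIM genes encode serine/threonine kinases that act without an activating phosphorylation step, so that their activity follows the amount of protein. Protein was not measured here. Pim1 (ENSMUSG00000024014.8, chromosome 17, 29490753 to 29496112) was at 33.6 scaled FPKM in the tumour library, against 22.0 in each lymphoid library. It was the most abundant of the 9 genes in every library. Its log2 change of 0.59 (SE 0.17) missed the threshold (limma adjusted p = 0.054), and with factors over the tested genes it was called (0.87, adjusted p = 0.0217). Pim2 (ENSMUSG00000031155.16, chromosome X, 7878262 to 7883432) was at 8.17 scaled FPKM in the tumour library, against 4.06 and 4.61. It had the second largest rise (0.78, SE 0.16, limma adjusted p = 0.0237, or 1.04 and adjusted p = 0.0101 with factors over the tested genes). As deposited neither was called, Pim1 being at 22.2 FPKM against 26.5 and 27.4, and Pim2 at 5.40 between the lymphoid values of 4.88 and 5.73. With counting error added, on about 196 and 36 tumour fragments, neither was called (adjusted p = 0.191 and 0.194). Without the filter on low values Pim1 was called (adjusted p = 0.042) and Pim2 was not (adjusted p = 0.0815).

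**Figure D3:**
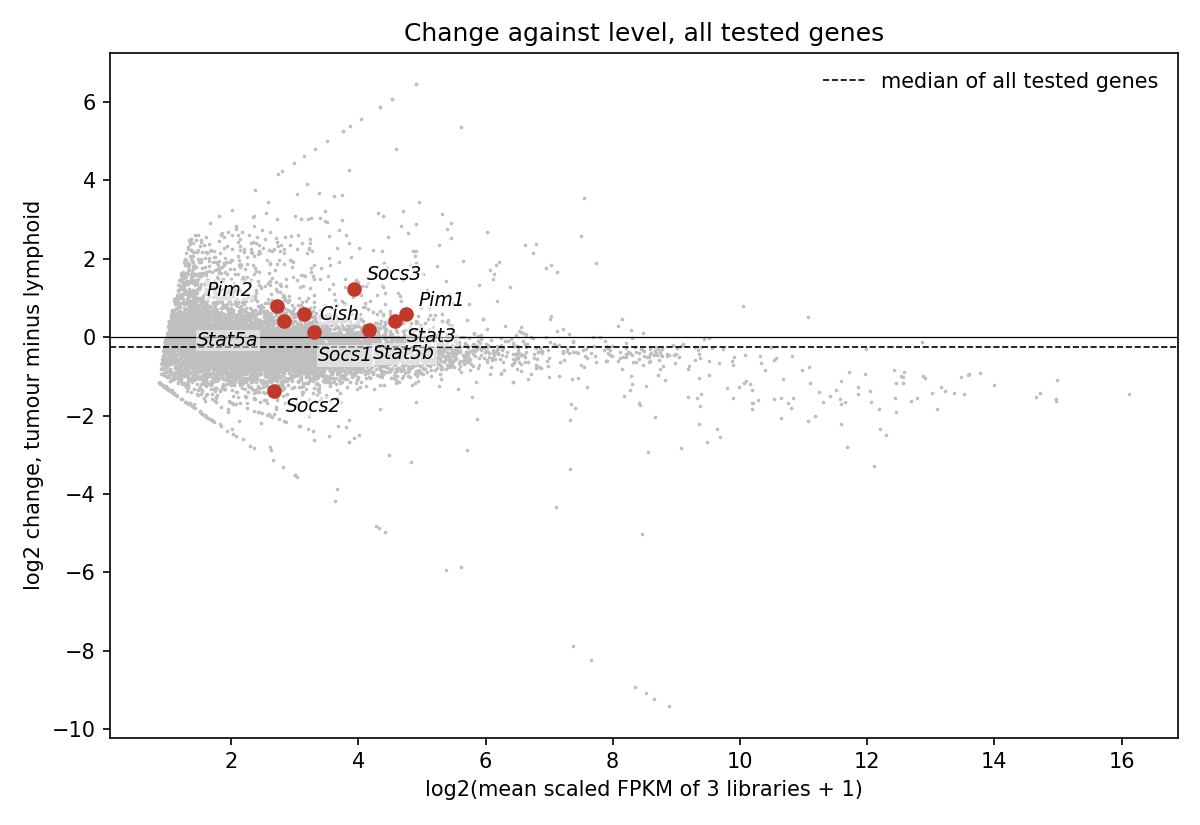
Each grey point is one of the 9800 tested genes, with its log2 change (tumour minus lymphoid) against log2 of its mean scaled FPKM plus 1, and red points mark the 9 genes. Of the red points, 8 lie above the dashed median of -0.25, with Socs3 highest at 1.23, and Socs2 lies at -1.38.

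The genes around these 9 in the pathway were grouped by role, and their calls are to be read beside the 8.54% of all tested genes called higher and the 19.7% called lower. With counting error added, 2 of the 79 listed genes tested kept a higher call (Gzmb and Fosl2) and 1 a lower call (Sh2b3). Of the remaining SOCS genes Socs4, Socs5, Socs6 and Socs7, all tested, 0 were called higher and 1 lower, with a median log2 change of -0.30, against -0.25 for all tested genes. Socs7 was at 2.30 scaled FPKM in the tumour library, above the 1.75 and 1.91 of the lymphoid libraries, but was not called (log2 change 0.22, limma adjusted p = 0.31). The lower one was Socs5, at 0.411 scaled FPKM in the tumour library against 2.51 and 2.58 (log2 change -1.33, limma adjusted p = 0.00643), on about 4 tumour fragments. The SOCS box joins SOCS proteins to a ubiquitin ligase built from elongins, Cul5 and Rnf7. Of those 4 genes, Elob (log2 change -0.99, limma adjusted p = 0.0171) and Cul5 (-0.60, adjusted p = 0.0413) were lower. Eloc was not called (0.44, adjusted p = 0.135), but it was called higher with factors over the tested genes (0.70, adjusted p = 0.0494). With those factors Elob kept its call (-0.70) and Cul5 did not (-0.39).

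Other brakes on JAK-STAT signalling, phosphatases, PIAS proteins and adaptors, had 0 higher and 3 lower calls among 13 tested genes, a share of lower calls near the 19.7% of all tested genes, with a median of -0.36. Sh2b3, an adaptor that inhibits JAK2, was at 1.48 scaled FPKM in the tumour library against 7.22 and 7.96. Its log2 change was -1.79 (limma adjusted p = 0.0031), on about 13 tumour fragments, and with counting error added the adjusted p was 0.0478, or 0.0526 with factors over the tested genes, which ended the call. Usp18, which restrains interferon receptor signalling, was lower by a log2 change of -1.16 (adjusted p = 0.00805), and the ubiquitin ligase gene Cbl by -0.68 (adjusted p = 0.0473). With counting error added neither was called (limma adjusted p = 0.184 for Usp18, on about 8 tumour fragments, and 0.162 for Cbl). Cbl lost its call with factors over the tested genes (-0.41, adjusted p = 0.171). The 4 JAK and 4 other STAT genes had 0 calls of 8 under either set of factors, with a median of -0.31, and 0 higher and 2 lower at an unadjusted p under 0.05. The most abundant, Jak1, was at 54.9 scaled FPKM against 78.2 and 73.8 (-0.46, adjusted p = 0.116).

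Among receptor genes, the interleukin-21 receptor stood out. Il21r, whose product signals through STAT3 and also STAT5, was at 125.1 scaled FPKM in the tumour library, against 47.7 and 34.0 in the lymphoid libraries. Its log2 change was 1.61 with SE 0.25 (limma adjusted p = 0.0135), and adjusted p = 0.051 with counting error added. Il4ra, the interleukin-4 receptor chain, was at 22.3 against 12.9 and 12.3 (0.78, adjusted p = 0.0262). These were the 2 higher calls among 8 tested genes of receptors that signal through STAT5, with 0 lower and a median of -0.21, where 8.54% and 19.7% of all tested genes were called higher and lower. Il2ra, Il2rb, Il2rg and Il7r had log2 changes of -0.50, -0.39, -0.53 and -0.22 and were not called. Among 7 tested genes of receptors that signal through STAT3, Il21r was higher and Il10ra (-0.89), Il27ra (-0.70) and Il12rb1 (-0.64) were lower, with a median of -0.59. Of those falls, Il10ra was also called with factors over the tested genes (adjusted p = 0.0395).

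Of 13 ligand genes, 4 passed the filter of a mean of at least 1 FPKM, and Ifng (-1.53, adjusted p = 0.00479) and Osm (-0.75, adjusted p = 0.0267) were lower, on about 10 and 4 tumour fragments. Of those below the filter, which were not tested, the interleukin-2 gene Il2 was at 1.04 scaled FPKM in the tumour library, against 0.746 and 0.472. Il21, the ligand of the interleukin-21 receptor, was at 1.99 against 0.481 and 0.374. Il7, Il15 and Lif were also above both lymphoid libraries, Il15 at 0.374 against 0.179 and 0.126. Receptor gene background averaged 0.229 scaled FPKM in the tumour library, against 0.0108 and 0.0465. Such rises were common among low genes. Without a filter 7805 of 23337 symbols were at least 2-fold above both lymphoid libraries, against 653 of the 9800 tested genes. Il6, Il10 and Il27 were listed at 0 in the tumour library and lymphoid library 1, and Il9 was listed at 0 in all 3.

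Textbook target genes were called in both directions for STAT5. These targets had 3 higher and 4 lower calls among 16 tested genes (4 and 3 with factors over the tested genes), with a median of -0.21. The shares over all tested genes were 8.54% higher and 19.7% lower (12.7% and 9.17% with those factors). The share of lower calls was near the background with the first factors and above it with those over the tested genes. The share of higher calls was above the background with both. These shares rest on 16 genes, and no set test was run. The higher ones were Gzmb, which encodes granzyme B (2.42, limma adjusted p = 0.00223), Bcl6, a gene that STAT5 represses (0.96, adjusted p = 0.0128), and Tnfrsf4, which encodes OX40 (0.59, adjusted p = 0.0417). The lower ones were led by Foxp3 (-1.11, adjusted p = 0.0172), Prf1, which encodes perforin (-0.85, adjusted p = 0.0171), and Osm. Il2ra and Bcl2, both STAT5 targets, were not called (-0.50 and -0.19). STAT3 targets had 2 higher and 0 lower calls among 14 (3 and 2 at an unadjusted p under 0.05), with a median of 0.06. These were the AP-1 gene Fosl2 (4.26, adjusted p = 0.00037) and Il4ra. The median of this list stood above the -0.25 of all tested genes, while Fos, Maf and Myc had log2 changes of -0.89, -0.50 and -0.34 and were not called. Of the PIM family and PIM substrates, 0 were higher and 1 lower of 6. Pim3 was at 0.951 scaled FPKM in the tumour library, against 2.01 and 1.82 (-0.58, adjusted p = 0.0498), on about 5 tumour fragments. With factors over the tested genes Pim3 was not called (-0.42, limma adjusted p = 0.118).

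**Figure D4:**
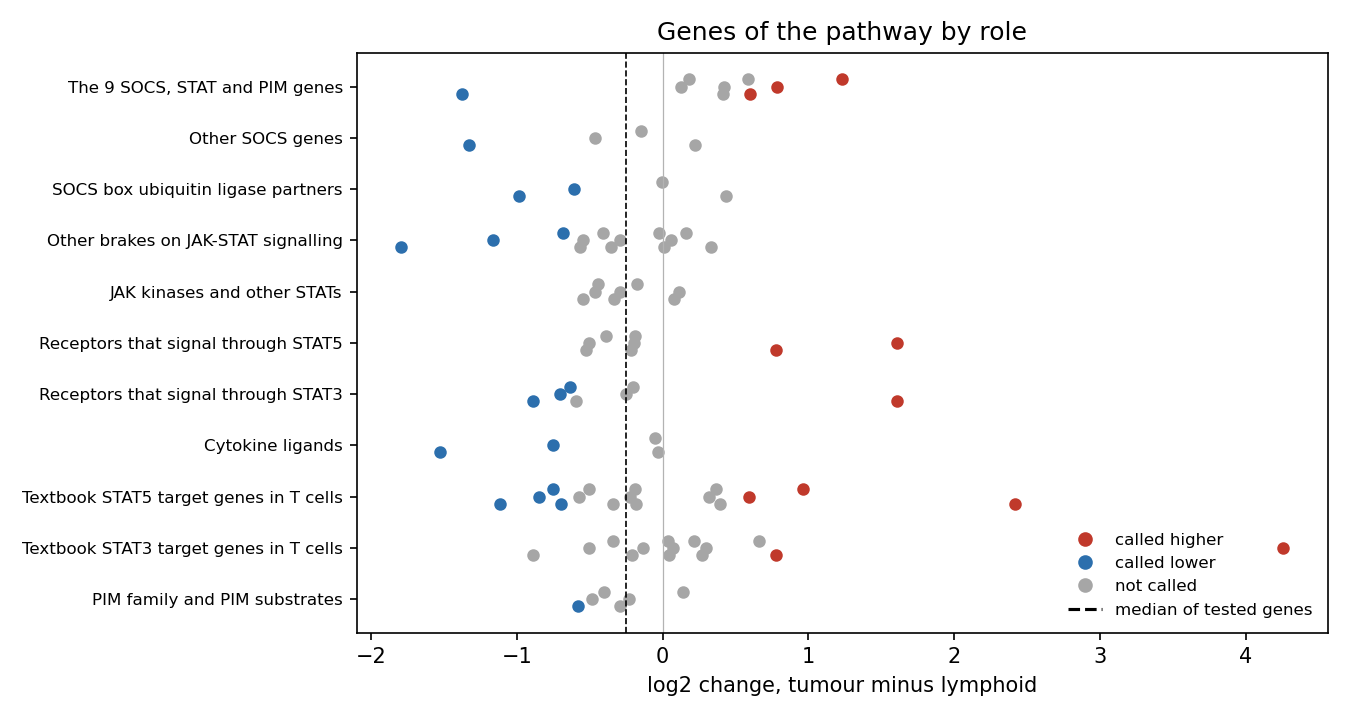
Each point is a tested gene placed by its log2 change, tumour minus lymphoid, in rows for the 9 genes and for the 10 lists by role, with red for called higher, blue for called lower and grey for not called. The 9 genes sit mostly right of the dashed median of -0.25, while the JAK and other STAT genes, with 0 calls, lie around it.

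Genes with a pattern like Socs3 or Socs2 were sought among tested genes with a mean of at least 10 scaled FPKM, by the distance between log2 profiles over the 3 libraries after the lymphoid mean was removed. Closest to Socs3 were Gm19757 (distance 0.02), Bhlhe40 (0.07) and Reep3 (0.10), of 2587 genes compared. Bhlhe40, a transcription factor gene, was at 26.5 scaled FPKM in the tumour library, against 10.2 in each lymphoid library. Closest to Socs2 were the small nucleolar RNA genes Snord83b (0.06) and Snord49a (0.10) and the potassium channel gene Kcna3 (0.08), the last at 5.19 against 16.9 and 14.2. With 3 libraries such likeness reflects little more than the size of the change.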

How the data were processed

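The deposited values, 1 per gene row and library (23832 rows), were taken as FPKM, a unit inferred from the header style and from sums that differ between libraries. Per the labels, total RNA of 300000 cells went into ribosomal RNA-depleted, stranded, paired libraries of 75 bp. The submitters' processing notes name mm10, kallisto and DESeq2 without roles or versions. The program, annotation and filters behind the values were not given in the sources used here.

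Where a symbol had more than 1 row (252 symbols), the one of highest mean was used, and 21705 symbols matched GENCODE M21 (GRCm38) directly and 1270 by an older symbol. Depth came from the commonest value of FPKM times length (within 3%) among genes with 1 transcript of at least 1000 nt under 2 FPKM. That value was assumed to be 1 fragment. Fragments behind a gene are its FPKM times its longest coding transcript over that value.

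Genes were tested with limma 3.58.1 (R 4.3.3), using a trend of variance on mean, a term for tumour, a pseudocount of 1, calls at an adjusted p under 0.05 and two-sided p. The lymphoid libraries give 1 residual degree of freedom, and the tumour library is assumed to vary like them. The SE of each gene also borrows from the lymphoid spread over all tested genes (median of 5.17 total degrees of freedom). Counting error was added as the Poisson variance of the tumour value. Promoter windows are from RefSeq (GRCm38.p6).

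The 9 genes and the 10 lists were chosen with earlier results of these data known. From each list, up to 3 called genes per direction were named, or the most abundant where none was called. Other genes named, such as Il2ra, Il2rb, Il2rg, Il7r, Bcl2, Eloc, Socs7, Il2, Il21, Il6, Fos, Maf and Myc, were picked after their values were seen.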

Additional observations from a re-analysis of the deposited data

How the results depend on the processing

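Scaling decides how many of the 9 genes are called. As deposited, 0 were called higher and 3 lower, and 6 log2 changes turned negative, those of Socs1 (-0.67), Cish (-0.19), Stat3 (-0.43), Stat5a (-0.35), Stat5b (-0.66) and Pim1 (-0.27). Scaling by the sum of all rows called 8 higher and 0 lower, by protein-coding sums 6 higher, and by factors over genes with a mean of at least 1 or at least 5 6 higher each. With counting error added, 0 and 0 were called (4 and 1 at an unadjusted p under 0.05), and 1 (Socs3) and 0 with factors over genes with a mean of at least 1. Leaving out lymphoid library 1 or 2 leaves 1 library against 1, a value with no test: of 18 such changes of the 9 genes 0 changed sign, and the largest shift was 0.07. No sign could change, because each gene lay above both or below both lymphoid libraries, so the signs are no check of robustness.

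Over all genes, the report's 837 higher and 1926 lower calls became 465 and 7620 as deposited, 4122 and 288 by the sum of all rows, and 1226 and 1047 by protein-coding sums. They became 5145 and 733 without a filter, 170 and 645 at a mean of at least 5, and 232 and 34 with counting error added. Factors over genes with a mean of at least 1 gave 1246 and 899, those at 5 gave 1473 and 801, and factors at 1 with counting error 348 and 22. The share of calls that were higher was 30.3% as reported, 5.75% as deposited, 53.9% by protein-coding sums, 58.1% and 64.8% by factors at 1 and 5 (94.1% at 1 with counting error), 93.5% by the sum of all rows, 87.5% without a filter and 87.2% with counting error added.

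Of the listed pathway genes, 6 were called higher and 15 lower as reported, against 3 and 62 as deposited, 34 and 2 by the sum of all rows, and 9 lower by protein-coding sums. Without a filter 8 were lower, at a mean of at least 5 there were 3 and 6, and with counting error 2 and 1. Factors over genes with a mean of at least 1 left 9 lower, or 0 with counting error, and those at 5 gave 11 and 7. Genes at least 2-fold above both lymphoid libraries numbered 653 as reported, 333 as deposited, 2416 by the sum of all rows, 7805 without a filter and 151 at a mean of at least 5. Those at least 2-fold below both numbered 949, against 5421, 196, 618 by protein-coding sums, 1919 without a filter and 371 at a mean of at least 5, and 584 and 520 with factors at 1 and 5. Without lymphoid replicate 1 or 2 these counts lay between 753 and 760 above and between 1204 and 1248 below. The cause of these differences was not tested. No paired analysis was possible because the tumour group is 1 library with no replicate number. Pseudocounts of 0.1 and 5, summing all rows of a symbol and subtracting receptor gene background left 3 higher and 1 lower of the 9, the same genes as reported. Without a filter, Socs3 and Pim1 were called higher and Socs2 lower, and with one at a mean of 5 Socs3 and Pim2 higher and Socs2 lower. The factors over tested genes and the background subtraction were chosen after seeing the data. With 1 residual degree of freedom and about 10 to 360 tumour fragments per gene, small changes could not be resolved.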
